A study of Mus musculus with 4 samples.

Results

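The Hox genes are the homeobox genes of the Hox-A, Hox-B, Hox-C and Hox-D clusters. They were taken as the entries whose symbol is HOX, a cluster letter from A to D and a number, which gave 39 of 112302 entries: 11 in Hox-A, 10 in Hox-B, 9 in Hox-C and 9 in Hox-D. RNA labelled as mouse testis of the BALB/C strain, bought as tissue RNA from a supplier, was sequenced at embryonic day 14 (E14), embryonic day 18 (E18), 3 weeks and 6 months of age. There was 1 library per stage. All 4 labels give the same strain and tissue, and none gives a mutation, a treatment, or the number of animals behind the RNA. Values are RPKM, reads scaled to gene model length and library size, so levels can be compared between genes. A stage without replicates allows no p-value, so none is given, and the 95% intervals cover counting error alone.

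Hox proteins are transcription factors that bind DNA through the homeodomain and give cells along the trunk, limbs and urogenital tract their position. Each cluster is read in order: genes of low paralog number, at the 3′ end, are transcribed earlier and up to a more anterior limit, and genes of high number, at the 5′ end, later and nearer the tail. Genes with the same number in different clusters are paralogs. In the fetus the 5′ genes pattern the lower trunk, the limb ends and the genital and urinary ducts, while Hoxa4 has long been known for its transcripts in male germ cells of the mouse testis.

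On mm10, Hox-A lay on chromosome 6 on the minus strand, and the others lay on the plus strand. Hox-B was at 96194316-96368256 on chromosome 11, Hox-C at 102921103-103036852 on chromosome 15 and Hox-D at 74668310-74765142 on chromosome 2. The results after birth turn on Hoxa4, a paralog group 4 gene, so its homeobox is shown beside that of Hoxc4, a group 4 gene that did not share its course. Each stretch is 180 bases in 1 exon, 5′ to 3′, from GENCODE vM21 transcripts on GRCm38, with capitals marking the bases that differ from Hoxa4. Positions were chr6:52190483-52190662 on the minus strand for Hoxa4 and chr15:103035663-103035842 on the plus strand for Hoxc4.
Hoxa4: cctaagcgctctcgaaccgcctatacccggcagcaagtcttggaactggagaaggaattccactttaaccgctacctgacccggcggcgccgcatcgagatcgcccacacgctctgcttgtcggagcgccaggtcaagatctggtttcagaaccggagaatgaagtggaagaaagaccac
Hoxc4: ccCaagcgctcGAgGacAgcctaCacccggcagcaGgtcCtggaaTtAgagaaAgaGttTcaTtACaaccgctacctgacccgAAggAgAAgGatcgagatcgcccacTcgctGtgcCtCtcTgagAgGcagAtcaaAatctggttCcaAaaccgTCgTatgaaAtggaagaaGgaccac
Hoxc4 differed from Hoxa4 at 38 of the 180 bases, and the longest run of equal bases in the homeobox was 17. Over the whole Hoxa4 transcript of 1594 bases, the longest stretch shared with any other Hox gene was 24 bases, with Hoxa2. It follows that 0 of its 1570 windows of 25 bases were found in another Hox transcript. Transcripts of genes outside the Hox clusters were not searched.

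The libraries were read against markers of testis and of other tissues. RPKM rests on 33952471 to 38903334 reads per library. Summed over 6 Sertoli cell markers, the level over the stages from E14 to 6 months was 5.47, 87.7, 107 and 118 RPKM, and 5 Leydig cell markers summed to 8.02, 126, 64.0 and 552 RPKM at those stages, with 0 markers of either list at 0 in any library. Of the Sertoli sum at E14, 4.00 RPKM came from Sox9, which is also a cartilage gene, and the other 5 markers summed to 1.46. Markers of tissues outside the testis were present as well. At E14, 6 skeletal muscle markers summed to 204 RPKM, 5 liver markers to 313 and 5 cartilage markers to 74.8. At E18 the liver markers summed to 70.2, 6 kidney tubule markers to 27.4 and 4 bladder urothelium markers to 41.3. Over the stages from E14 to 6 months, 4 epididymis markers summed to 0.0631, 0.287, 44.5 and 2.30 RPKM, with 41.5 RPKM at 3 weeks from Crisp1, a secreted protein of the epididymis. In the library labelled E14 testis, then, the sums for Sertoli and Leydig cells lay below those for muscle, liver and cartilage. Since Hox genes are expressed by body position, these values stand beside the results they move with. In whole tissue, fewer cells of a type and less RNA per cell cannot be told apart.

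The map of members shows a broad fetal pattern and a narrow postnatal one. In the 4 libraries, from E14 to 6 months, 16, 21, 3 and 3 of the 39 Hox genes reached 1 RPKM. Some genes lay just under 1 RPKM at E14, so the order of the fetal counts depends on the scaling. The median member was at 0.932, 1.15, 0.204 and 0.0544 RPKM, and members summed to 47.3, 57.9, 21.0 and 33.3 RPKM. Of the postnatal sums, Hoxa4 alone made up 49.5% at 3 weeks and 79.3% at 6 months. Without it the sums were 46.7, 57.2, 10.6 and 6.92 RPKM, so the other 38 genes together were lower in both postnatal libraries than in both fetal ones. Among the deposited sums 6 months was lowest, but with libraries rescaled by the median of ratios over all entries the 38 genes summed to 8.56 RPKM at 6 months and 8.14 at 3 weeks. Rescaled over ribosomal protein genes they summed to 13.7 and 14.6 RPKM, again below both fetal libraries. Over all members 5405, 5796, 1644 and 2305 reads were recovered, and 1, 1, 3 and 6 genes had 0 reads.

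**Figure D1:**
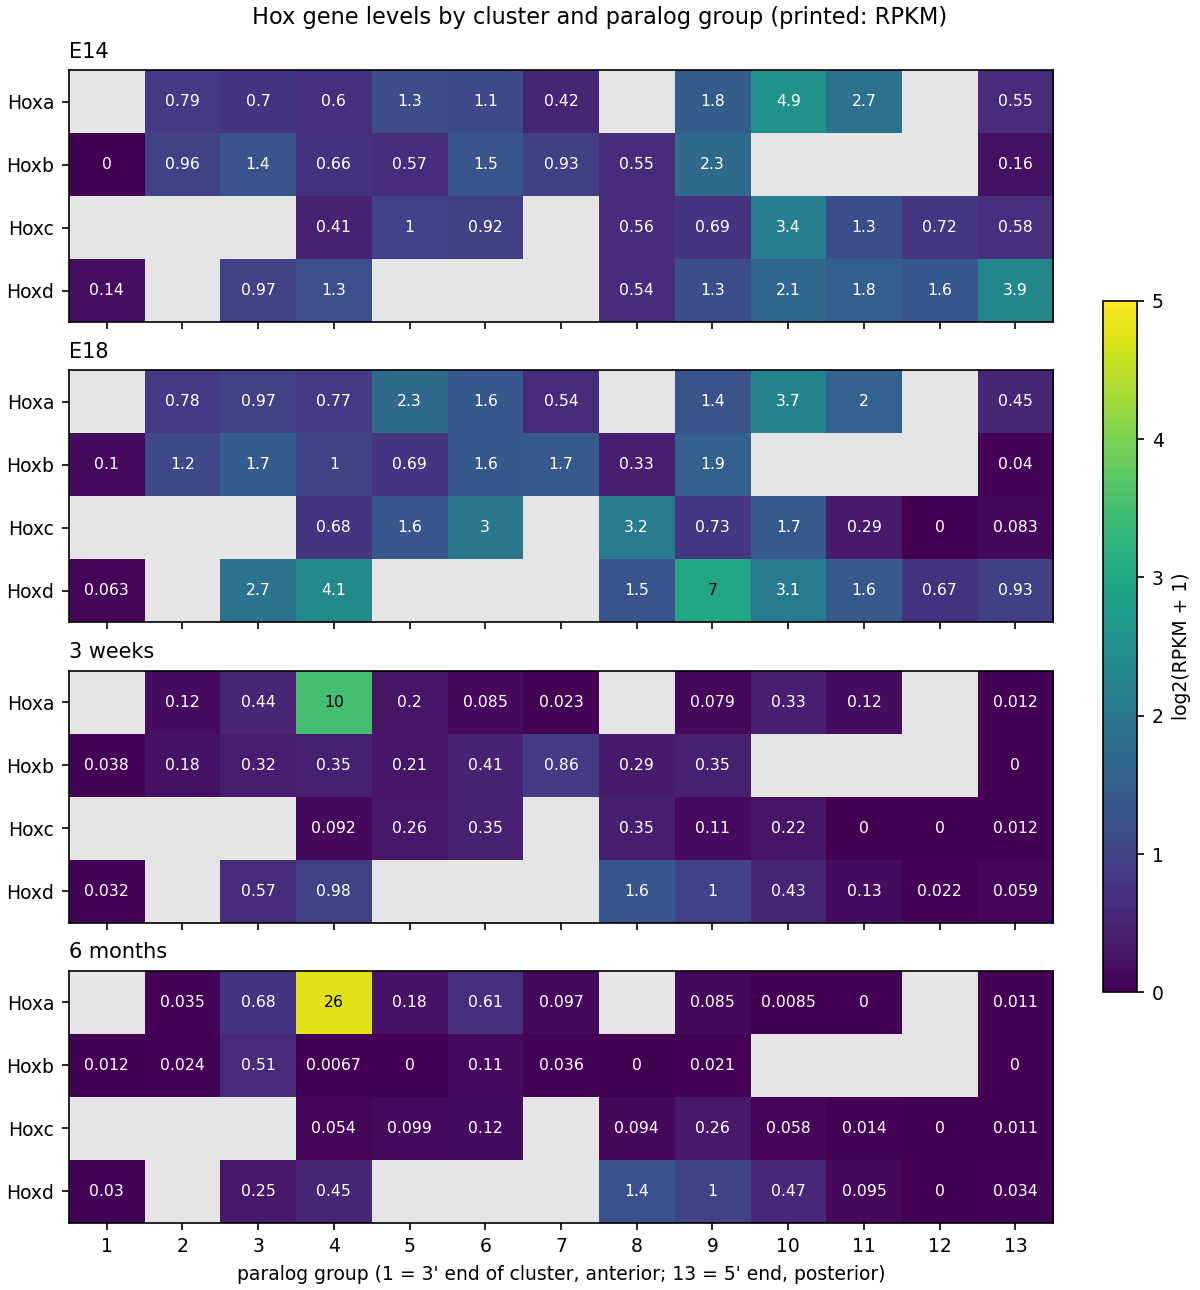
RPKM of 38 Hox genes, printed in each cell, by cluster (vertical) and paralog number (horizontal) in the 4 libraries, with colour for log2(RPKM + 1) and grey where no value is shown. At 1 RPKM or above stand 16 genes at E14 and 21 at E18, and after birth Hoxa4 stands at 10.4 RPKM at 3 weeks and 26.4 at 6 months while Hoxd8 and Hoxd9 are the other genes that reach 1 RPKM in either postnatal library.

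Which members led changed with stage. At E14 the highest were 5′ genes: Hoxa10 at 4.85 RPKM, Hoxd13 at 3.90 and Hoxc10 at 3.39. At E18 they were Hoxd9 at 7.01, Hoxd4 at 4.12 and Hoxa10 at 3.73 RPKM. In both postnatal libraries the order was Hoxa4, Hoxd8 and Hoxd9. Hoxa4 stood 6.59 times above Hoxd8 at 3 weeks and 19.1 times above it at 6 months, whereas the highest member exceeded the next by 1.24 times at E14 and 1.70 times at E18.

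The stretch of each cluster that reached 1 RPKM ran, in Hox-A, from Hoxa5 to Hoxa11 at E14 and at E18, and held Hoxa4 alone after birth. In Hox-B it ran from Hoxb3 to Hoxb9 at E14 and from Hoxb2 to Hoxb9 at E18, with no gene at 3 weeks or 6 months. In Hox-C it held Hoxc10 and Hoxc11 at E14 and ran from Hoxc5 to Hoxc10 at E18, again with no gene after birth. In Hox-D it ran from Hoxd4 to Hoxd13 at E14 and from Hoxd3 to Hoxd11 at E18, and held Hoxd8 and Hoxd9 at both postnatal stages. At this level, as deposited, every cluster except Hox-A began at a lower paralog number at E18 than at E14. Hox-C and Hox-D also ended at a lower one. The starts rest on genes just under the limit at E14: Hoxb2 at 0.964 RPKM, Hoxc5 at 0.999 and Hoxd3 at 0.966. The median of ratios divides E14 values by 0.914, so where the stretches began depends on the scaling.

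By class, genes of groups 9 to 13, the posterior genes, gave 63.1%, 44.3%, 13.7% and 6.37% of the summed Hox RPKM from E14 to 6 months. Groups 4 to 8 gave 26.2%, 42.5%, 78.2% and 89.0%, and groups 1 to 3 gave 10.6%, 13.2%, 8.13% and 4.65%. The postnatal shares rest on Hoxa4: without it, groups 9 to 13 gave 27.1% at 3 weeks and 30.7% at 6 months. In RPKM, groups 9 to 13 summed to 29.8, 25.7, 2.88 and 2.13 over the 4 stages, groups 4 to 8 to 12.4, 24.6, 16.4 and 29.7, and groups 1 to 3 to 5.03, 7.67, 1.71 and 1.55.

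**Figure D2:**
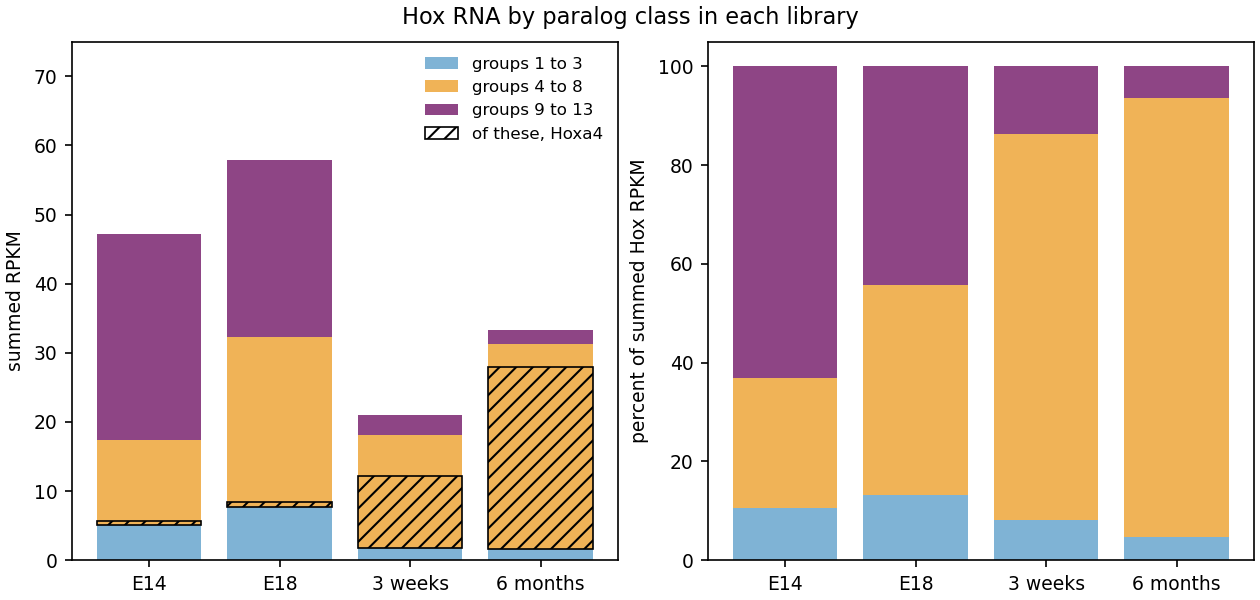
Summed RPKM (left) and percent of the summed Hox RPKM (right) by paralog class in the 4 libraries, with Hoxa4 hatched on the left, 1 library per stage. Groups 9 to 13 sum to 29.8 RPKM at E14 and 2.13 at 6 months, while groups 4 to 8, which hold Hoxa4, sum to 12.4 and 29.7 RPKM.

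Between E18 and E14, the first comparison, 5 Hox genes passed the 2-fold limit: 4 of groups 4 to 9 stood higher at E18 and Hoxd13, of group 13, lower. A difference is that of log2(RPKM + 1), later stage minus earlier stage, which understates the change of low genes, and a gene is called higher or lower at a difference of at least 1, or 2-fold. Called higher were 4 of 39 Hox genes (Hoxd9, Hoxc8, Hoxd4 and Hoxc6), against 2.17% of all 42964 entries tested, and 1 was called lower (Hoxd13), against 1.34%. Of protein-coding entries tested, 3.54% were called higher and 1.63% lower. The median difference was 0.11 over the 39 genes and 0.04 over all entries. Scaled over ribosomal protein genes, 2 were called higher (Hoxd9 and Hoxc8) and Hoxd13 lower, and under the median of ratios Hoxc6 alone lost its call. A call needs 1 RPKM in the higher library, which 25 members reached somewhere and 14 nowhere. The shares of all entries leave out such low entries, so their like is the 25 members, not the 39.

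Hoxd9, which helps to pattern the lumbar spine and hindlimb, had 1.31, 7.01, 1.01 and 1.05 RPKM at E14, E18, 3 weeks and 6 months. E18 stood above the other 3 libraries, which lay close together, and the difference from E14 was 1.80 (ratio 5.37, 4.36 to 6.65). Hoxc8, a gene of the thoracic trunk and brachial motor neurons, had 0.561, 3.21, 0.346 and 0.0938 RPKM. It too peaked at E18, with a difference of 1.43 (ratio 5.73, 3.74 to 9.09). Hoxd4, which patterns cervical vertebrae, had 1.34, 4.12, 0.978 and 0.448 RPKM and a difference of 1.13 (ratio 3.09, 2.52 to 3.79). Hoxc6, a gene of the forelimb and thoracic level, had 0.925, 3.02, 0.353 and 0.123 RPKM and a difference of 1.06 (ratio 3.27, 2.56 to 4.21). In all 4 genes the E18 interval lay above that of every other library.

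Hoxd13, a gene of the digits, genital tubercle and hindgut end, had 3.90, 0.930, 0.0593 and 0.0337 RPKM from E14 to 6 months. E14 was highest and each later library was lower than the one before. At E18 the difference was −1.35, and the level was 4.20 times lower than at E14 (3.29 to 5.42), with 79 reads at E18 and 377 at E14. Hoxd13 reached 1 RPKM at E14 alone, so with E14 left out of the filter on low values it was not tested and 0 Hox genes were called lower. Hoxd13 and Hoxd9 lie in 1 cluster on the same strand and moved in opposite directions, so the stretch around each start is shown, from 250 bases before to 50 after, 5′ to 3′ on the plus strand, from RefSeq on GRCm38.p6. Hoxd13 is at chr2:74667975-74668274 and Hoxd9 at chr2:74697513-74697812, with capitals marking each CG.
Hoxd13: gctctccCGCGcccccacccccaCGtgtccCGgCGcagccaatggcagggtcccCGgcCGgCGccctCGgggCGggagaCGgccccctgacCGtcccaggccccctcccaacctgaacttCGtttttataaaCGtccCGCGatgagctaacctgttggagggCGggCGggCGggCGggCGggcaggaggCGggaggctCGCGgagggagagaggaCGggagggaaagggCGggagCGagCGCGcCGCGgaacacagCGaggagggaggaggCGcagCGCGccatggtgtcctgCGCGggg
Hoxd9: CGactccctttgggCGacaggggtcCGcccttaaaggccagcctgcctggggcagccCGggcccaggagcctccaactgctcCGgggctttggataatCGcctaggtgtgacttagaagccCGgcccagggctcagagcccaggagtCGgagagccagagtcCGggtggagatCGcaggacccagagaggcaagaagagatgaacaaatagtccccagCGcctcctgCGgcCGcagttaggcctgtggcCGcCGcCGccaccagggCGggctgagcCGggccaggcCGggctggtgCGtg
The Hoxd13 stretch held 37 CG and the Hoxd9 stretch 20, against a median of 14.5 over 24 promoters of 22 Hox genes and 7 over all 32851 RefSeq promoters of this length. The letters TATAAA, searched on both strands, were found at position 127 of the Hoxd13 stretch and not in that of Hoxd9. They were in 4 of the 24 Hox promoters (16.7%) and in 13.6% of all promoters.

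Counted by RPKM alone, whether called or not, most 5′ genes were lower at E18. All 9 genes of groups 11 to 13 had a lower RPKM at E18 than at E14, and summed to 6.07 RPKM at E18 and 13.3 at E14. Across groups 9 to 13, 13 of 16 genes were lower at E18, against 30.7% of all entries tested, whereas 20 of 23 genes of groups 1 to 8 were higher, against 56.2%. Of protein-coding entries tested, 31.6% were lower and 66.9% higher. The Hox counts include Hoxd13 among the lower and the 4 genes called higher. Rescaled by the median of ratios over all entries, or over ribosomal protein genes, these were 14 of 16 and 19 of 23, and the 9 of 9 held. A direction counted in this way has no size limit and includes genes of few reads. Among them are the 14 Hox genes below the filter, whereas the shares of entries leave such genes out.

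Hoxc11, active at the lumbosacral level, had 1.30, 0.289, 0 and 0.0138 RPKM at E14, E18, 3 weeks and 6 months, and its E18 level was 4.49 times below that at E14 (2.76 to 7.65). Hoxc12 had 0.723 RPKM from 29 reads at E14 and 0 reads at E18, 3 weeks and 6 months, which put E18 at least 8.50-fold lower, counting 0 as 3 reads. Hoxc13, known for hair and nails, had 0.585, 0.0831, 0.0120 and 0.0113 RPKM, and was 7.04 times lower at E18 than at E14 (3.20 to 18.3). These Hox-C genes were read mainly at E14. Hoxd12 had 1.61, 0.669, 0.0225 and 0 RPKM, and was 2.40 times lower at E18 than at E14 (1.78 to 3.29). Hoxc10, a gene of the lumbar level and hindlimb, had 3.39, 1.68, 0.216 and 0.0584 RPKM, and was 2.02 times lower at E18 than at E14 (1.60 to 2.55). Hoxb13, known for prostate and tail, had 0.163, 0.0397, 0 and 0 RPKM from 14, 3, 0 and 0 reads.

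The 5′ genes of Hox-A moved less between the fetal libraries. Hoxa11, a gene of the kidney, forearm and genital ducts, had 2.69, 1.96, 0.120 and 0 RPKM from E14 to 6 months, and its E18 to E14 ratio was 0.730 (0.602 to 0.882). Hoxd11, which acts with Hoxa11 in kidney and forearm, had 1.82, 1.65, 0.126 and 0.0949 RPKM and a ratio of 0.906 (0.779 to 1.05), an interval that holds 1. Hoxa13, a partner of Hoxd13 in digits and genital tubercle, had 0.551, 0.449, 0.0119 and 0.0113 RPKM and a ratio of 0.815 (0.523 to 1.26). The ratio of Hoxd13 was 0.238 (0.184 to 0.304), so the intervals of these paralogs did not overlap.

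**Figure D3:**
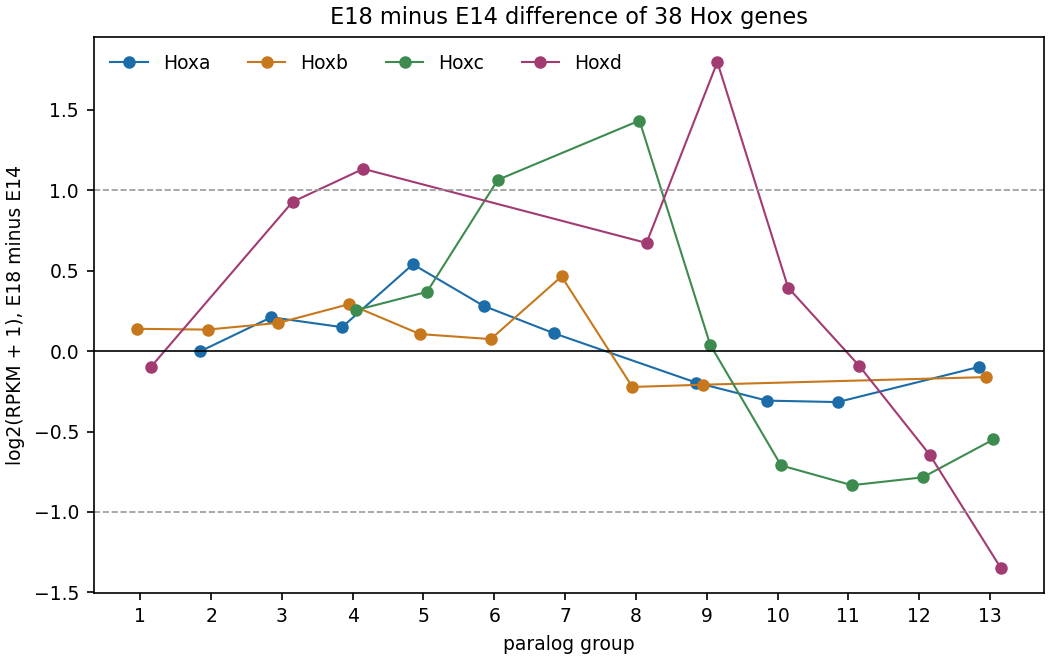
Difference of log2(RPKM + 1), E18 minus E14, for 38 Hox genes by paralog number, with points of a cluster joined in its own colour, 1 library per stage. The dashed lines mark the 2-fold limit at 1 and −1, and genes above the upper one are Hoxd9, Hoxc8, Hoxd4 and Hoxc6, Hoxd13 lies below the lower line at −1, and all 9 genes of groups 11 to 13 lie below 0.

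Summed over clusters, the E18 to E14 ratio of RPKM was 1.57 for paralog group 1, 1.11 for group 2, 1.76 for group 3, 2.20 for group 4, 1.61 for group 5, 1.76 for group 6, 1.62 for group 7, 3.02 for group 8 and 1.81 for group 9. For groups 10, 11, 12 and 13 it was 0.822, 0.672, 0.287 and 0.289. The ratio of the sums thus passed from above 1 to below 1 between groups 9 and 10, but single genes did not all follow. The group 9 sum was carried by Hoxd9 (5.37). Hoxa9 had 0.802 (0.684 to 0.939), Hoxb9 0.807 (0.661 to 0.984) and Hoxc9 1.07 (0.740 to 1.54). In group 10, Hoxa10 and Hoxc10 were below 1 and Hoxd10 was above it, at 1.46 (1.22 to 1.75). Across the 39 genes Spearman's rho of the difference with paralog number was −0.53. Within clusters it was −0.56 over the 11 genes of Hox-A, −0.59 over the 10 of Hox-B, −0.72 over the 9 of Hox-C and −0.53 over the 9 of Hox-D. These are descriptions across genes that share 2 libraries and neighbouring positions.

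Markers of body parts moved between the same libraries, in which 2.17% of all entries tested were called higher at E18 and 1.34% lower. Limb patterning genes, 7 in all, summed to 3.68 RPKM at E18 and 12.4 at E14, and 1 of the 4 tested was called lower: Pitx1, a hindlimb gene, at 0.803 RPKM at E18 and 3.24 at E14. Tbx4, also a hindlimb gene, had 0.155 RPKM at E18 and 1.14 at E14 without a call. All 5 cartilage markers were called lower, with sums of 0.658 RPKM at E18 and 74.8 at E14, and 3 of 6 skeletal muscle markers were called lower, with sums of 45.1 RPKM at E18 and 204 at E14. Liver markers were called lower in 3 of 5, with sums of 70.2 RPKM at E18 and 313 at E14. In the other direction, all 6 kidney tubule markers and all 4 bladder urothelium markers were called higher at E18, with sums of 27.4 RPKM at E18 and 1.60 at E14 for kidney, and 41.3 and 8.57 RPKM for bladder. Of 7 tested urogenital ridge genes 4 were called higher, led by Nr5a1, a regulator of gonad and adrenal development, at 11.96 RPKM at E18 and 0.394 at E14, and Wt1, a regulator of gonad and kidney, at 7.95 and 1.64 RPKM. The part of these tissues in the Hox differences was not tested. Tail bud genes stayed low, with a sum of 0.895 RPKM over 5 genes at E18 and 0.440 at E14.

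Between 3 weeks and E18, the second comparison, most Hox genes were lower at 3 weeks and Hoxa4 alone was called higher. Of the 39 genes, 16 were called lower, against 10.5% of all entries tested, and 1 was called higher, against 32.0%. Of protein-coding entries tested, 13.2% were called lower and 24.1% higher. Only 25 of the 39 genes passed the filter that these shares use. By RPKM, 36 of the 39 Hox genes were below their E18 level, 2 were above it and Hoxc12 had 0 reads in both. The median difference was −0.71 over the Hox genes and 0.46 over all entries. Scaled to 28 ribosomal protein genes, whose median difference was −1.18, the calls lower numbered 2 (Hoxa10 and Hoxd9) and the median of all entries moved by 0.67. Under that scaling 32 of 39 were still below their E18 level, and Hoxa4 was the 1 gene called higher.

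The 16 genes spanned the clusters: 5 in Hox-A, 2 in Hox-B, 4 in Hox-C and 5 in Hox-D. By class they were 2 of 8 genes in groups 1 to 3, 6 of 15 in groups 4 to 8 and 8 of 16 in groups 9 to 13. Hoxd9 fell by 1.99, to 1.01 RPKM at 3 weeks against 7.01 at E18, a level 6.93 times lower (5.43 to 8.95). Hoxa10, which acts in the uterus, the lumbar spine and the descent of the testis, had 4.85, 3.73, 0.333 and 0.00854 RPKM over the 4 stages. It was high in both fetal libraries and low in both postnatal ones. Its difference at 3 weeks was −1.83, with a level 11.2 times lower than at E18 (7.98 to 16.1).

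Hoxc8 fell by 1.65 and Hoxc6 by 1.57, to levels 9.28 times (5.34 to 17.4) and 8.56 times (5.86 to 12.95) below those at E18. Hoxd10, another gene of the lumbar level and hindlimb, had 2.14, 3.13, 0.433 and 0.474 RPKM from E14 to 6 months, with a difference of −1.53 and a level 7.22 times lower at 3 weeks than at E18 (5.16 to 10.4). The postnatal values of Hoxd10 lay close together, with overlapping intervals. Differences of the other 11 genes called lower lay between −1.46 (Hoxa5, a lung and neck gene) and −1.04 (Hoxc5). Hoxa5 had 1.27, 2.30, 0.204 and 0.179 RPKM at the 4 stages.

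The Hox-B genes called lower were Hoxb9 and Hoxb3. Hoxb9, which patterns the thoracic ribs, had 2.33, 1.88, 0.349 and 0.0207 RPKM at E14, E18, 3 weeks and 6 months. Hoxb3, a hindbrain and pharyngeal gene, had 1.43, 1.75, 0.318 and 0.508 RPKM. Hoxb7 had 0.932, 1.66, 0.858 and 0.0362 RPKM, so its 3-week level was close to that at E14, and Hoxb2, a hindbrain gene, had 0.964, 1.15, 0.177 and 0.0240 RPKM. Among these 4 genes Hoxb3 was the only one with a higher RPKM at 6 months than at 3 weeks.

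Hoxd8, a gene of the trunk, was not called at any step. It had 0.543, 1.46, 1.58 and 1.38 RPKM over the 4 stages, so E14 was lowest and the other 3 libraries had overlapping intervals. The ratio of 3 weeks to E18 was 1.08 (0.851 to 1.38), whereas Hoxd9 and Hoxd10 on 1 side and Hoxd4 and Hoxd3 on the other were all called lower. Its difference at 3 weeks was 0.07 as deposited, −0.12 under the median of ratios and 0.80 under ribosomal protein scaling, so its direction depends on the scaling.

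Hoxa4 (ENSMUSG00000000942.10, chr6:52189671-52191753, minus strand) had 0.597, 0.770, 10.4 and 26.4 RPKM at E14, E18, 3 weeks and 6 months, from 37, 42, 563 and 1508 reads. The fetal intervals overlapped, at 0.420 to 0.822 and 0.555 to 1.04 RPKM, and the postnatal ones stood far above them and apart from each other, at 9.56 to 11.3 and 25.1 to 27.8 RPKM. The difference at 3 weeks was 2.69, with a ratio of 13.5 to E18 (9.87 to 19.0). It was 2.36 under the median of ratios and 3.41 under ribosomal protein scaling. At 3 weeks Hoxa4 was above 93.4% of all entries, and at E18 above 75.7%.

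**Figure D4:**
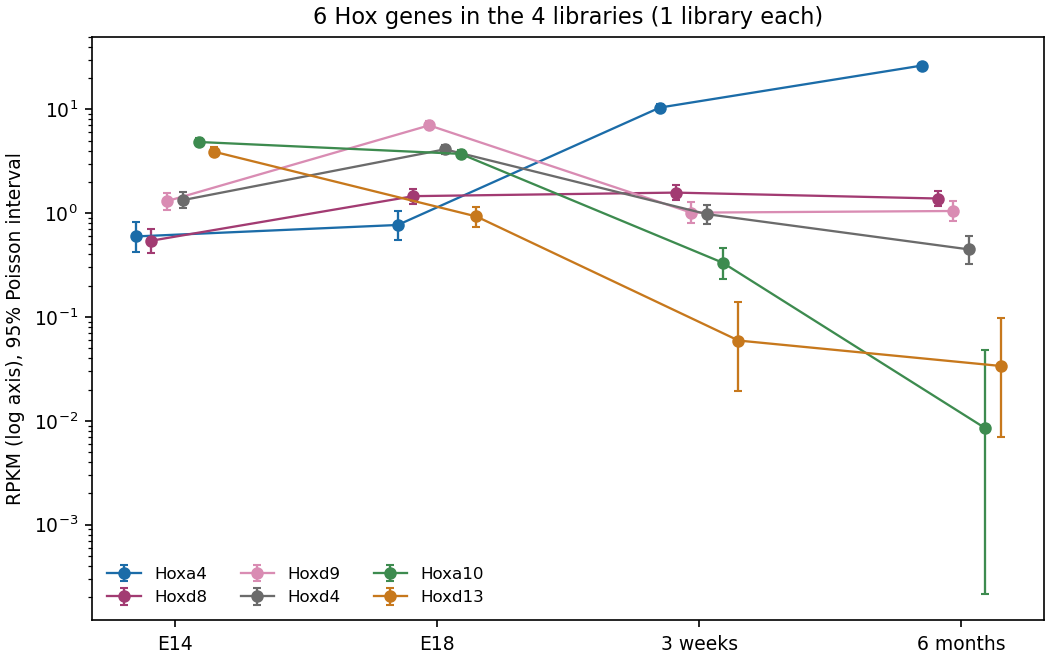
RPKM of 6 Hox genes (log axis) in the 4 libraries, with bars for the 95% Poisson interval of the recovered reads, 1 library per stage. Hoxa4 reaches 10.4 RPKM at 3 weeks and 26.4 at 6 months, Hoxd9 peaks at 7.01 at E18, and Hoxd13 and Hoxa10 are highest at E14.

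Over the 4 stages the paralogs and the neighbours of Hoxa4 did not share its course. Hoxb4 had 0.663, 1.04, 0.348 and 0.00673 RPKM over the 4 stages and Hoxc4 had 0.411, 0.683, 0.0918 and 0.0544, both lowest at 6 months. In Hox-A, Hoxa3, a gene of the thymus and pharynx whose annotated span on the same strand contains Hoxa4, had 0.699, 0.966, 0.444 and 0.678 RPKM. Hoxa5, on the other side, was called lower at 3 weeks. From 3 weeks to 6 months alone, the deposited ratio was 1.53 for Hoxa3 (1.19 to 1.97), 7.21 for Hoxa6 (2.83 to 23.5) and 4.11 for Hoxa7 (1.13 to 22.5). That of Hoxa5 was 0.875 (0.365 to 2.08). The Hoxa4 exons share 255 bases (16.0%) with Gm29430, a gene on the opposite strand. How strand was treated in counting is not given in the sources used here, so reads of the 2 genes cannot be told apart there.

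Markers of germ cells and of stroma moved in the same comparison, in which 32.0% of all entries tested were called higher and 10.5% lower. Of 4 germ cell markers all were called higher, with sums of 411 RPKM at 3 weeks and 17.2 at E18, and so were 4 of 4 spermatocyte markers, with 466 and 5.55 RPKM. All 6 stroma markers were called lower, with sums of 60.4 RPKM at 3 weeks and 314 at E18. Kidney tubule and bladder markers were called lower in 6 of 6 and 4 of 4, with sums of 0.771 and 0.587 RPKM at 3 weeks, against 27.4 and 41.3 at E18, and 1 marker of each list was at 0 at 3 weeks. All 5 liver markers and 3 of 6 skeletal muscle markers were called lower, with sums of 1.78 and 1.13 RPKM at 3 weeks, against 70.2 and 45.1 at E18. Epididymis markers were called higher in 2 of 3 tested, with sums of 44.5 RPKM at 3 weeks and 0.287 at E18. The part of these cells in the Hox differences was not tested.

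Between 6 months and 3 weeks, the third comparison, Hoxa4 was the 1 Hox gene called higher, against 9.73% of all entries tested, and 0 were called lower, against 14.1%. Of protein-coding entries tested, 9.54% were called higher and 7.87% lower. The Hoxa4 difference was 1.27, with a ratio of 2.54 (2.30 to 2.80). Under the median of ratios this was 1.91 and under ribosomal protein scaling 1.81, where Hoxb7 was also called lower. At 6 months it stood above 98.3% of all entries. The summed RPKM of all Hox genes was 33.3 at 6 months and 21.0 at 3 weeks, and without Hoxa4 the deposited values summed to 6.92 and 10.6 RPKM. That order without Hoxa4 depends on the scaling: it held over ribosomal protein genes and not under the median of ratios, where the sums were 8.56 RPKM at 6 months and 8.14 at 3 weeks.

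Apart from Hoxa4, 27 genes had a lower and 9 a higher RPKM at 6 months than at 3 weeks, with 2 at 0 in both. Of all entries tested, 67.3% were lower at 6 months and 32.3% higher. Under either other scaling 20 of the 39 Hox genes were lower. Hox-B and Hox-C were at their lowest here. The 10 Hox-B genes summed to 0.716 RPKM at 6 months and 3.00 at 3 weeks, and the 9 Hox-C genes to 0.718 and 1.39 RPKM. Hoxb5 and Hoxb8 had 0 reads at 6 months, against 20 and 26 at 3 weeks, at least 7.03-fold and 9.14-fold lower with 0 counted as 3 reads, and Hoxb4 had 1 read against 49. Hoxb5 and Hoxb8 did not reach 1 RPKM in any library and were not tested. With a pseudocount of 0.1 in place of 1, 9 Hox genes were called lower, Hoxb4 among them. The share of all entries called at that pseudocount is not given, so this count cannot be set against the rest of the entries.

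As deposited, Hox-D summed to 3.77 RPKM at 6 months and 4.81 at 3 weeks, and Hoxd8 and Hoxd9 gave most of both sums. Hoxd9 had a ratio of 1.04 (0.749 to 1.44) and Hoxd8 of 0.877 (0.690 to 1.12), and both intervals hold 1. The ratio was 0.445 for Hoxd3 (0.322 to 0.609) and 0.457 for Hoxd4 (0.307 to 0.672), intervals below 1, without a call. These Hox-D ratios and intervals are those of the deposited values and shift with the scaling. The Hoxd9 difference was 0.03 as deposited and 0.37 under both the median of ratios and ribosomal protein scaling. That of Hoxd8 was −0.11 as deposited, 0.30 under the median of ratios and 0.24 under ribosomal protein scaling. Hoxa6 had 1.14, 1.60, 0.0851 and 0.613 RPKM from 77, 95, 5 and 38 reads over the 4 stages. Its 6-month level was 7.21 times that at 3 weeks (2.83 to 23.5), short of a call, and it was called with a pseudocount of 0.1. Hoxc9, the highest Hox-C gene at 6 months, had 0.688, 0.733, 0.109 and 0.264 RPKM. Its 2 postnatal values came from 9 reads at 3 weeks and 23 at 6 months.

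Spermatid markers were called higher in 5 of 5 at 6 months, with sums of 5690 RPKM at 6 months and 8.25 at 3 weeks. Stroma markers were called lower in 5 of 6, with 11.8 and 60.4 RPKM, and Leydig cell markers higher in 4 of 5, with 552 and 64.0 RPKM. Spermatocyte markers summed to 323 RPKM at 6 months and 466 at 3 weeks, with 2 of 4 called lower. Of 3 epididymis markers tested, 2 were called lower and 1 higher, with sums of 2.30 RPKM at 6 months and 44.5 at 3 weeks. These marker calls stand beside 9.73% of all entries tested called higher and 14.1% lower. The part of all these cells in the Hoxa4 difference was not tested.

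Noncoding genes inside the clusters were read at low levels. Hoxa11os, antisense to Hoxa11, had 2.38, 1.68, 0.0671 and 0 RPKM from E14 to 6 months, and Hoxb3os, antisense to Hoxb3, had 1.60, 1.91, 0.337 and 0.359. Both were called lower at 3 weeks than at E18. They share 800 and 2250 exon bases with Hoxa11 and Hoxb3 on the opposite strand, so the values of each pair are uncertain. Hoxb5os, antisense to Hoxb5, had 0.591, 1.05, 1.18 and 1.04 RPKM and was not lower after birth. Hotair, a long noncoding RNA of Hox-C, had 0.391, 0.0542, 0.131 and 0.0518 RPKM from 41, 5, 12 and 5 reads and was highest at E14. Of 16 noncoding genes listed, 11 had an entry and 5 were tested. At E18, 2 of these were called higher than at E14 (Mir10b and Mir196a-1), against 2.17% of all entries tested. Both reached 1 RPKM at E18 alone, so they were tested only through the library where they were high. Their count therefore shows no excess over that share. At 3 weeks 3 were called lower than at E18 (Mir10b, Hoxb3os and Hoxa11os), against 10.5%. These too passed the filter through fetal libraries alone, so the same limit holds. At 6 months 0 were called, against 9.73% of all entries higher and 14.1% lower.

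Those 2 miRNA calls rest on 5 reads at E18 and 1 at E14 for Mir10b, and on 6 and 1 for Mir196a-1. Hairpin entries in these libraries do not measure mature miRNAs. The mature sequences that the clusters encode are shown because members from different clusters share a seed, the bases 2 to 8 in capitals, from RefSeq on GRCm38.p6. Mir10a lies in Hox-B and Mir10b in Hox-D, Mir196b in Hox-A, Mir196a-1 in Hox-B and Mir196a-2 in Hox-C.
mmu-miR-10a-5p: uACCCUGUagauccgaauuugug
mmu-miR-10b-5p: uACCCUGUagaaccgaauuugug
mmu-miR-196a-5p: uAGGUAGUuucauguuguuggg
mmu-miR-196b-5p: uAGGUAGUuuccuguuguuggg
The 10a and 10b forms share the seed ACCCUGU, and the 196a and 196b forms share AGGUAGU.

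Hox proteins bind DNA with partner homeodomain proteins of the TALE class, the Pbx, Meis and Pknox families. All 9 were tested and 0 were called between E18 and E14, against 2.17% of all entries higher and 1.34% lower. At 3 weeks 4 were called lower than at E18, against 10.5% of all entries tested, and 1 higher, against 32.0%. The list's median difference was −0.85. Meis1 had 4.28, 5.82, 0.826 and 0.221 RPKM over the 4 stages (difference −1.90 at 3 weeks), and Meis2 and Meis3 were also called lower. Pbx4, a member known from spermatocytes, had 0.0863, 0.154, 9.77 and 8.54 RPKM, with a difference of 3.22 at 3 weeks. Like Hoxa4 it was low in both fetal libraries and high in both postnatal ones. As deposited its 6-month level was not above that at 3 weeks, but this order depends on the scaling. At 6 months 1 was called higher than at 3 weeks, against 9.73% of all entries: Pknox2, with 2.48 RPKM at 6 months and 0.334 at 3 weeks.

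**Figure D5:**
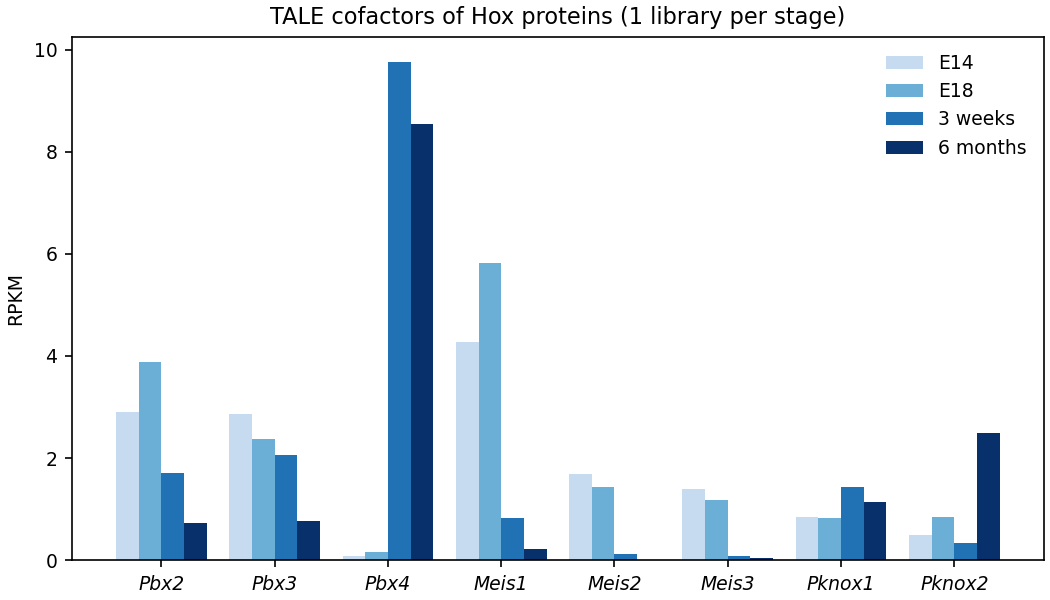
RPKM of 8 TALE cofactors of Hox proteins in the 4 libraries, 1 library per stage. Meis1 is highest at E18 (5.82 RPKM), and Pbx4 is at 0.0863 and 0.154 RPKM in the fetal libraries and at 9.77 and 8.54 RPKM after birth.

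Polycomb proteins keep Hox genes silent and trithorax proteins keep them active. Of 19 Polycomb genes tested, 0 were called between the fetal libraries, against 2.17% of all entries higher and 1.34% lower at E18. At 3 weeks 7 were called higher than at E18, against 32.0% of all entries tested, led by Pcgf5 (17.4 RPKM at 3 weeks and 0.870 at E18) and Pcgf6 (7.63 and 0.940), both subunits of variant complexes, and 2 lower, against 10.5%, Cbx6 (2.29 and 14.1) and Pcgf2 (0.568 and 2.37). At 6 months 4 were called lower than at 3 weeks, against 14.1% of all entries, led by the ubiquitin ligase Rnf2 (5.88 and 18.2) and Suz12 (3.00 and 9.13), a subunit of the methyltransferase complex. Of 12 trithorax and demethylase genes, 3 were called higher at 3 weeks, against 32.0%, led by Psip1 (30.2 RPKM at 3 weeks and 3.09 at E18) and Ash2l (16.7 and 3.83), and 3 lower at 6 months, against 14.1%, led by Psip1 (8.21 RPKM at 6 months and 30.2 at 3 weeks) and Kmt2c (1.54 and 4.31). Medians at 3 weeks were 0.79 for Polycomb and 0.31 for trithorax genes, against 0.46 over all entries.

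The ParaHox genes, the 6 relatives of the Hox genes outside the clusters, summed to 0.696, 0.316, 0.0860 and 0.0281 RPKM over the 4 stages, and 0 reached 1 RPKM. Of 11 genes that flank the clusters, 7 were tested and 0 were called between the fetal libraries, against 2.17% of all entries higher and 1.34% lower at E18. At 3 weeks 2 were called higher than at E18, against 32.0% of all entries: Ttll6, a tubulin-modifying enzyme beside Hox-B, with 10.7 RPKM at 3 weeks and 0.197 at E18, and Skap2, an adaptor protein gene beside Hox-A, with 4.15 and 0.802. Skap2 was called lower at 6 months, at 1.41 RPKM. Evx1 and Evx2, homeobox genes at the 5′ ends of Hox-A and Hox-D, had 0.241, 0.122, 0 and 0.00971 RPKM and 0.137, 0.0325, 0 and 0.00622 RPKM over the 4 stages. Both were highest at E14, as were Hoxa13 and Hoxd13 beside them.

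By annotation, 16 of the 39 Hox genes share exon bases with another gene, 10 of them with a gene on the opposite strand, and their values are uncertain to that extent. Of these, 4 share bases with another Hox gene: Hoxc5 and Hoxc10 share 166 bases, and Hoxd3 and Hoxd4 share 388. Hoxb1, a hindbrain gene, had 0, 0.101, 0.0381 and 0.0120 RPKM over the 4 stages, and Hoxd1 had 0.138, 0.0628, 0.0316 and 0.0300. Both were low throughout. Hoxb1 had 8 reads or fewer per library, and Hoxd1 had 5 or fewer as recovered. The recovered Hoxd1 length was 931 bases against 1862 in GENCODE, so a common factor may be lost in its reads. Hoxd3, a gene of the upper neck vertebrae, had 0.966, 2.74, 0.569 and 0.253 RPKM over the 4 stages. Of the other members, Hoxa2, Hoxa7, Hoxa9, Hoxb5, Hoxb6, Hoxb8 and Hoxc5 lay between 0 and 1.78 RPKM, and each was lower in both postnatal libraries than at E18.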

How the data were processed

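RNA from 4 mouse testis libraries was analysed, 1 per stage, and samples were grouped by the age in the labels. Per the labels' protocols, ribosomal RNA was depleted, then polyadenylated RNA was selected for directional libraries; the labels' short descriptions name depletion alone. The deposited unit is RPKM per gene model, which the authors computed before deposit. Per the submitters' processing notes, TopHat2 and mm10 were used. The counter, the annotation and the handling of strand were not given in the sources used here.

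Comparisons of adjacent stages used the 42964 of 112302 entries with at least 1 RPKM in at least 1 library, on log2(RPKM + 1), a pseudocount of 1 and a size limit of 2-fold. No test across replicates was possible. Reads behind the RPKM were recovered as the smallest whole numbers, with 1 shared model length up to 200000 bases, at a relative tolerance of 1e-09, for 39 of 39 Hox genes. For 13 the length equals the GENCODE vM21 exon length, and a common factor may be lost elsewhere. The denominators came from the most frequent value of RPKM times length over 11431 single-exon genes. A gene model of 1 kb with 3 reads has 0.0771, 0.0876, 0.0884 and 0.0838 RPKM in the libraries from E14 to 6 months. Intervals are exact Poisson for levels and exact Clopper-Pearson for ratios, at 95%. They cover counting error only, as PCR copies are not separate molecules.

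Named with values in all libraries were the highest member of each cluster per library, up to 5 called members per direction and comparison, all members of groups 11 to 13 and those at the ends of each expressed stretch; from each list up to 2 genes per direction were named, with others beside them chosen after their values were seen. Some members, cofactors and sequences are not reported here. The members, the gene lists and the rule were chosen with earlier results of these data known. Coordinates are from GENCODE vM21 on GRCm38 (mm10) by symbol. The procedure was tested on simulated data. The settings varied were the pseudocount (0.1), the filter (none), the limit (4-fold), scaling by the median of ratios over 59564 entries or over 28 ribosomal protein genes, reads in place of RPKM, other class limits, and leaving out Hoxa4. Python 3.11.15, pandas 2.3.3, numpy 2.4.6, scipy 1.17.1 and matplotlib 3.10.9 were used.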

Additional observations from a re-analysis of the deposited data

How the results depend on the processing

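No paired analysis was possible because each stage has 1 library. Of 57 alternative values over 13 results, 30 kept the direction and lay within the limits set for the same result, 26 moved and 1 turned. With a pseudocount of 0.1, Hox genes called lower numbered 3 at E18 against E14 (1 as reported). At 6 months against 3 weeks 2 were called higher (1 as reported) and 9 lower (0 as reported), since a smaller added value lets lower levels reach the limit. This holds for all entries too, and their shares at a pseudocount of 0.1 are not given. At a 4-fold limit the counts were 0 higher and 0 lower at E18, 0 lower at 3 weeks and 0 higher at 6 months, and Hoxa4 at 3 weeks was the call that remained. Scaled over ribosomal protein genes, 2 were higher at E18, 2 lower at 3 weeks and 1 (Hoxb7) lower at 6 months. The log2 ratio of summed Hox RPKM was 0.29 for E18 over E14 (0.11 under the median of ratios, 0.10 under ribosomal protein scaling), −1.46 for 3 weeks over E18 (−1.80, −0.18, and −2.43 without Hoxa4), and 0.67 for 6 months over 3 weeks (1.36, 1.20, and −0.62 without Hoxa4, the one that turned). Without Hoxa4 the sum at 6 months was below that at 3 weeks as deposited and over ribosomal protein genes, and above it under the median of ratios (8.56 and 8.14 RPKM). These scalings moved the median difference of all entries by −0.04, −0.20 and 0.38, and by −0.04, 0.67 and 0.30, in the 3 comparisons; the cause was not tested. The share of groups 9 to 13 became 50.2%, 25.2%, 6.35% and 2.12% from E14 to 6 months when group 9 was left out. With reads in place of RPKM it was 16.1% at 3 weeks and 8.63% at 6 months. Without Hoxa4 it was 27.1% and 30.7%, as this gene made up 49.5% and 79.3% of those totals. Removing the filter could change no count, since a call itself needs 1 RPKM in the higher library. Leaving E14 out of the filter was chosen after seeing the data. For the same reason it could not change the counts at 3 weeks and 6 months, or the count higher at E18. Values that could not change are among the 30 above and say nothing about robustness. Without E14 in the filter 0 Hox genes were lower at E18 against E14, since Hoxd13 reached 1 RPKM at E14 alone and was then not tested. Depth limits the postnatal values most, where many members have under 10 reads.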
